A study of Mus musculus with 18 samples.

Results

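Interferon-stimulated genes are the antiviral and regulatory genes that cells switch on when interferon reaches them. A list of 37 such genes was followed in mouse bone marrow, of which 34 had a probe on the array that could be traced to the gene. Samd9l, Herc6 and Ddx60 had none and are not described further. Genes were listed for their known induction by interferon. The 34 measured genes were all well above background on all 18 arrays and were among 11884 genes tested, out of 17178 with a probe.

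The marrow came from female C3H mice, an inbred laboratory strain, at 1 week and at 8 weeks of age. At each age there was an unirradiated control group, and 2 Gy of gamma rays, delivered at 0.6 Gy per min, preceded collection by 6 h in 1 further group and by 24 h in another. Each of the 6 groups held 3 arrays, 1 per mouse, and no gene deletion, transgene or further agent is named for any of them. RNA of whole marrow was measured, so in each result a change in the share of a cell type and a change of RNA per cell cannot be told apart.

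Type I interferons bind the receptor chains Ifnar1 and Ifnar2 and activate the kinases Jak1 and Tyk2. These set off a complex with Stat2 and Irf9 that binds interferon-stimulated response elements in promoters and turns on the genes described here. Among the products are further signalling factors such as Irf7, so that the pathway can feed itself, and brakes such as Usp18. In marrow, interferon signalling is known to act on stem cells, on B-cell production and on macrophages.

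Promoter stretches with letters of the response element are shown for 6 of the genes, and binding of the complex was not measured. They are shown because the set holds both genes that rose many fold and genes that did not pass the test. A promoter from RefSeq's GRCm38.p6 table could be matched to 27 of the 34 genes, 35 promoters in all. The table is of a reference strain and not of C3H. The core of the response element was searched as GAAA, any 2 bases and GAAA again, on both strands and with overlaps allowed, in the 250 bases before each start. Matches are in capitals, in either orientation, and overlapping matches run together.
Ifit3, chr19:34583353-34583436, plus strand: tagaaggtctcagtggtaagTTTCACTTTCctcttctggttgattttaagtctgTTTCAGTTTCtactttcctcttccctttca
Ifit1, chr19:34640765-34640833, plus strand: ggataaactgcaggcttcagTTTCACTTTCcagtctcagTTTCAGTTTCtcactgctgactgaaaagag
Oas1a, chr5:120907526-120907565, minus strand: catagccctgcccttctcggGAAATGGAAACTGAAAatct
Rsad2, chr12:26456543-26456592, minus strand: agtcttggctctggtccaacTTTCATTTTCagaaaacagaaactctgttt
Isg15, chr4:156200855-156200916, minus strand: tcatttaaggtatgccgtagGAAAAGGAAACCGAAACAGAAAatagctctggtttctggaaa
Stat2, chr10:128270256-128270305, plus strand: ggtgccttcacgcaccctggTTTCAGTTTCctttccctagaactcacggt

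A match stood in 9 of the 35 promoters, or 25.7%, against 978 of all 32841 promoters in the table, or 2.98%. The 9 genes were Bst2, Ifit1, Ifit3, Isg15, Oas1a, Oas3, Rsad2, Stat2 and Trim30a. No match was found for the other 18 genes with a promoter, which says only that these letters are not in these windows. The 3 Ifit genes lie together on chromosome 19, and Oas1a, Oas3, Oasl1 and Oasl2 lie on chromosome 5.

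Signals are given as log2 values relative to the 75th percentile of each array, and differences between groups are on the same log2 scale with the standard error (SE) of the limma fit. A gene is called changed when its limma p-value, adjusted over the 11884 genes by Benjamini-Hochberg, is under 0.05. All 18 arrays had between 51.0% and 62.1% of probes above background, and replicate arrays correlated at 0.992 or more, apart from 1 array. That array, replicate 2 of the 1-week controls, correlated at 0.978 and 0.980 with the other 2 of its group. It carried a summed skeletal muscle marker signal of 604 and a cartilage signal of 300, against at most 14.7 and 8.18 on every other array. It was also the lowest of its group for 26 of the 34 interferon-stimulated genes, so results that lean on it are given without it. The part of the muscle and cartilage signal in those results was not tested.

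At 8 weeks the interferon-stimulated genes rose after irradiation, moderately at 6 h and strongly at 24 h, and at 1 week the calls went both ways. In 8-week marrow 22 of 34 were called higher at 6 h and none lower, against 23.9% of all tested genes higher and 22.1% lower. By 24 h 31 of 34 were higher and none lower, with 38.3% of all genes higher and 19.5% lower. The median difference over the 34 genes was 0.43 at 6 h and 1.05 at 24 h, where the medians of all tested genes were 0.02 and 0.12. At 24 h 19 of the 34 had at least doubled, against 7.75% of all genes. The 2 times share their control arrays, and so do the comparisons that follow. With a normexp background correction of the raw signals, which lowered the calls over all genes too, 3 of the 34 were called at 6 h and 21 at 24 h.

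In 1-week marrow 8 of 34 were called higher and 3 lower at 6 h, where 25.5% of all genes were higher and 26.3% lower. The count at 24 h was 7 higher and 1 lower, against 18.4% and 17.6%. Both shares of genes called higher are near those of all genes, and the medians over the 34 genes were 0.02 and 0.06. With the normexp correction 1 was called at 6 h and 2 at 24 h. Leaving out replicate 1 of the 1-week arrays at 6 h left 7 of 34 called at that time, and leaving out replicate 2 or replicate 3 at 24 h left 5. The split at 6 h depends on how arrays are scaled: with each array set to its median, 2 were higher and 9 lower, and the median of all tested genes fell by 0.19 as well.

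**Figure D1:**
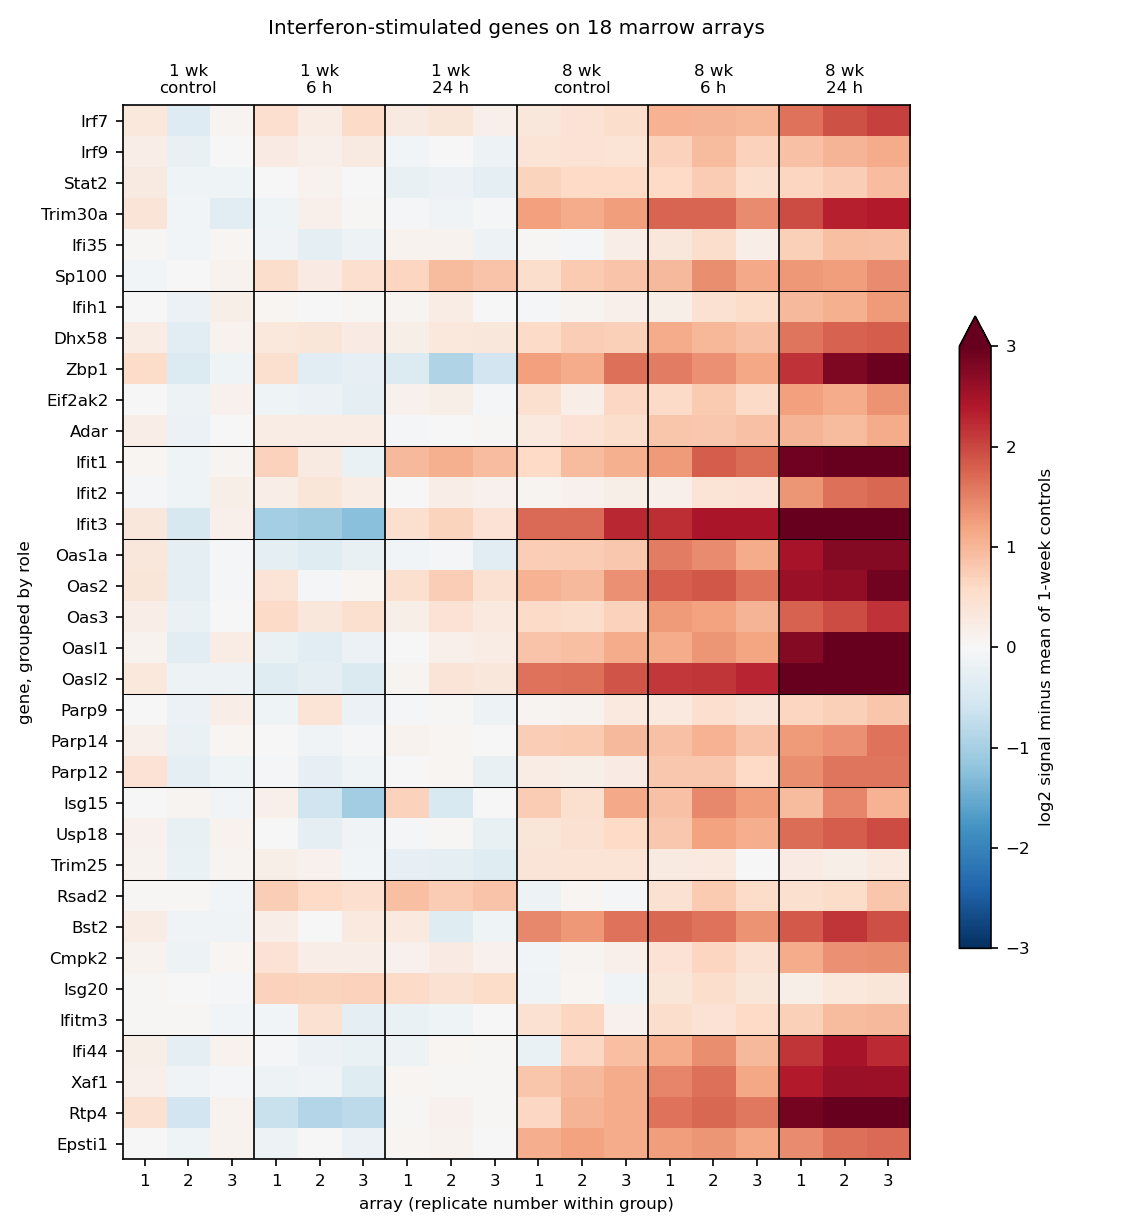
Heat map of 34 interferon-stimulated genes (rows, grouped by role) on 18 arrays (columns, 3 per group), coloured by log2 signal minus the mean of the 1-week controls, red for higher and blue for lower, with values above 3 drawn in the darkest red. The 8-week arrays at 24 h are the reddest columns, while Ifit3 and Rtp4 are blue on all 3 of the 1-week arrays at 6 h.

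**Figure D2:**
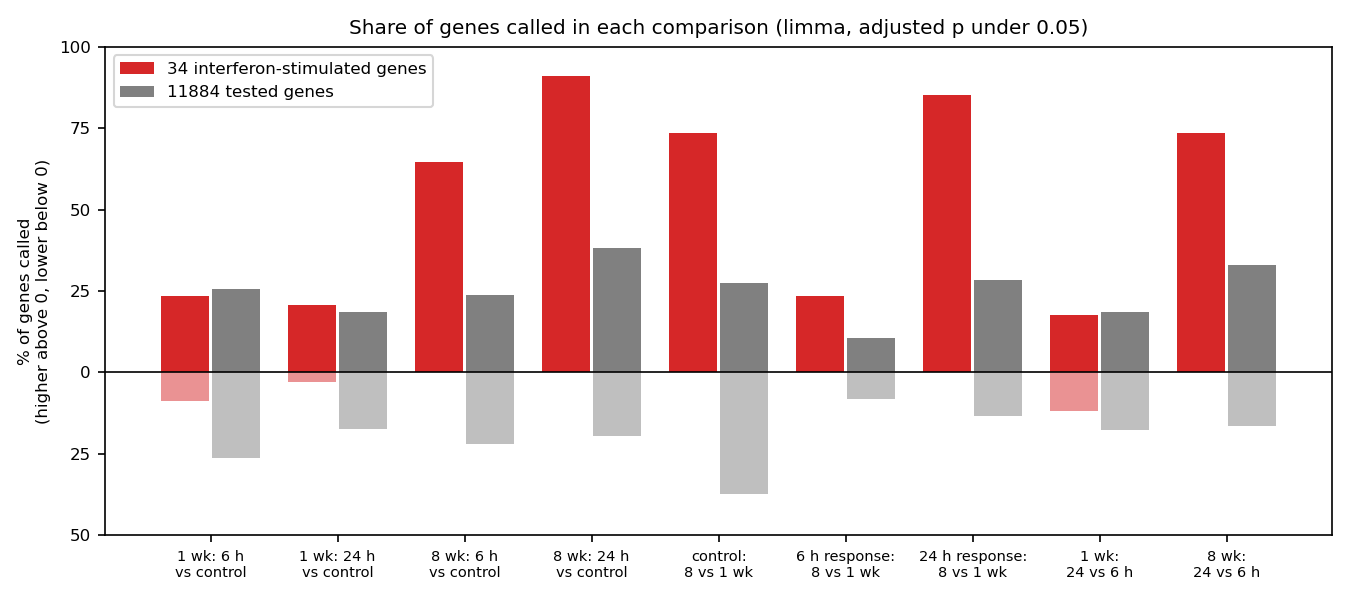
Bars give the percentage of the 34 interferon-stimulated genes (red) and of all 11884 tested genes (grey) called higher (upward) or lower (downward, paler) in each of 9 comparisons. The red bars rise well above the grey ones in the 8-week comparisons and in the comparison of controls, while at 1 week the upward bars stand close together and the downward red bars, for 3 and 1 genes, are shorter than the grey ones at 26.3% and 17.6%.

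Of 6 factors of interferon signalling and transcription 5 were called higher at 8 weeks, at both times. The 6 h calls of Trim30a and Ifi35 were lost on leaving out single arrays, as given below. Over all genes 23.9% were called higher at 6 h and 38.3% at 24 h at that age. The counts by family below are to be read beside these shares. Irf7, the transcription factor that drives interferon gene expression, stood at 0.16, 0.25 and 0.35 on the 8-week control arrays, at 0.86, 0.83 and 0.81 at 6 h and at 1.45, 1.73 and 1.87 at 24 h. The 3 groups did not overlap, and the step from control was 0.58 (SE 0.14) at 6 h and 1.43 (SE 0.14, adjusted p = 3.72e-07) at 24 h. At 1 week the values were 0.13, -0.56 and -0.10 in controls, 0.33, 0.03 and 0.40 at 6 h and 0.10, 0.19 and -0.02 at 24 h. These overlapped, and the call at 6 h (0.43, adjusted p = 0.0176) was lost without control replicate 2, when the difference was 0.24.

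Stat2, the signal transducer in the complex with Irf9, was called between the ages and not after irradiation. It measured 1.93, 1.53 and 1.52 on 1-week control arrays and 2.32, 2.25 and 2.26 on 8-week control arrays, a difference of 0.62 (SE 0.10, adjusted p = 3.6e-05). After irradiation it stood at 2.26, 2.43 and 2.18 and then 2.29, 2.40 and 2.58 at 8 weeks, overlapping the controls. The 1-week values were 1.66, 1.77 and 1.66 at 6 h and 1.44, 1.49 and 1.38 at 24 h, the latter all below the controls without passing the test (adjusted p = 0.0844). Irf9, the DNA-binding member of the complex, was higher by 0.36 at 6 h and 0.59 (SE 0.09) at 24 h in 8-week marrow, and did not pass the test at 1 week.

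Sp100, a nuclear body protein, was called higher in all 4 comparisons of irradiated with control marrow. Its 1-week values were 1.34, 1.40 and 1.51 in controls, 1.95, 1.67 and 1.93 at 6 h and 2.07, 2.36 and 2.27 at 24 h. At 8 weeks they were 1.96, 2.20 and 2.28 in controls, 2.39, 2.81 and 2.56 at 6 h and 2.71, 2.68 and 2.84 at 24 h. No irradiated array overlapped the controls of its age, and the rise at 24 h was 0.82 (SE 0.11) at 1 week and 0.60 (SE 0.11) at 8 weeks. Trim30a, a ring-finger protein that restrains Toll-like receptor signalling, rose by 1.02 and Ifi35, a leucine zipper protein, by 0.76 at 8 weeks and 24 h. At 1 week neither passed the test at either time. At 8 weeks and 6 h Trim30a rose by 0.44 and Ifi35 by 0.29. That call of Trim30a was lost without 8-week control replicate 2 or 6 h replicate 1 or 2, at 0.39 to 0.40. The 6 h call of Ifi35 was lost without 8-week control replicate 1 or 2 or 6 h replicate 2, at 0.20 to 0.27.

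All 5 sensors of foreign or self nucleic acid rose at 8 weeks and 24 h. Ifih1, which binds long double-stranded RNA, went from 0.42 ± 0.10 (SD, n = 3) in controls to 1.46 ± 0.15 (SD, n = 3). Dhx58, its cofactor, rose by 1.06. Eif2ak2, a kinase that halts translation, rose by 0.79, and Adar, which edits adenosines in double-stranded RNA, rose by 0.61. At 6 h the called rises were Ifih1 at 0.33, Dhx58 at 0.31 and Adar at 0.42. The 6 h calls of Ifih1 and Dhx58 were lost without 8-week control replicate 1, at 0.28 and 0.26.

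Zbp1, a sensor of Z-form nucleic acid that can set off cell death, was the most variable of the sensors among replicates. Its 8-week values were -0.12, -0.22 and 0.31 in controls, 0.20, 0.04 and -0.18 at 6 h and 0.83, 1.45 and 1.59 at 24 h. The 24 h arrays stood above both other groups, by 1.30 (SE 0.26) over controls, whereas the 6 h arrays overlapped the controls. At 1 week the values ran -0.80, -1.75 and -1.48 in controls, -0.87, -1.69 and -1.59 at 6 h and -1.74, -2.25 and -1.92 at 24 h, a difference of -0.63 at 24 h that did not pass the test (adjusted p = 0.0672). At 1 week Dhx58 and Adar were called higher at 6 h, by 0.31 and 0.23, and without control replicate 2 both calls were lost, at 0.15 and 0.14. None of the 5 sensors was called at 1 week and 24 h.

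The Ifit genes, whose products bind foreign RNA and block its translation, held the 2 largest rises of the whole list at 8 weeks and 24 h. Ifit3 stood at 0.34, 0.33 and 0.89 on the 8-week control arrays and 0.84, 1.09 and 1.08 at 6 h, where 1 irradiated array lay below the highest control. The 6 h call (0.49) was lost on leaving out 8-week control replicate 1 or 2 or 6 h replicate 2 or 3, at 0.39 to 0.45. At 24 h it reached 3.49, 3.83 and 4.0, a 9.54-fold rise (3.25, SE 0.19, adjusted p = 7.72e-10). The 1-week arrays went the other way first: -1.03, -1.85 and -1.22 in controls, -2.38, -2.43 and -2.63 at 6 h and -0.90, -0.71 and -0.92 at 24 h. The 6 h values lay below every control, a fall of 2.17-fold (-1.12, SE 0.19, adjusted p = 0.000111). The 24 h values lay above every control, by 0.52, but without control replicate 2 that difference was 0.28 and no longer called.

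Ifit1 rose at both ages. Its 1-week values were -1.73, -1.90 and -1.70 in controls, -1.09, -1.51 and -1.97 at 6 h and -0.80, -0.71 and -0.85 at 24 h. The 24 h arrays all exceeded the controls (0.99, SE 0.20, adjusted p = 0.00094), while the 6 h arrays were spread to both sides of them. At 8 weeks it measured -1.18, -0.83 and -0.70, then -0.51, 0.04 and -0.10 at 6 h and 1.14, 1.61 and 1.74 at 24 h, each group clear of the one before. The 24 h rise was 5.28-fold (2.40, SE 0.20). Ifit2 was at 0.20 (adjusted p = 0.165) at 6 h and rose by 1.44 (SE 0.12) at 24 h in 8-week marrow, with no call at 1 week.

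All 5 members of the Oas family rose at 8 weeks and 24 h, with a median difference of 1.89. Oas1a, Oas2 and Oas3 make the oligoadenylates that switch on RNase L, and Oasl1 and Oasl2 are related proteins. Oas1a measured 1.95, 1.97 and 2.03 on the 8-week control arrays, 2.75, 2.64 and 2.34 at 6 h and 3.68, 3.96 and 3.97 at 24 h. Each step was clear of the one before, 0.59 (SE 0.13) and then 1.89 (SE 0.13) over controls. The 1-week values of 1.55, 0.92 and 1.17 in controls, 0.94, 0.85 and 0.99 at 6 h and 1.12, 1.16 and 0.88 at 24 h overlapped and gave no call.

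Oasl1 was called at 24 h and not at 6 h, like Ifit2. Its 8-week arrays read -0.01, 0.01 and 0.23 in controls, 0.25, 0.44 and 0.31 at 6 h and 1.88, 2.23 and 2.50 at 24 h. The 6 h difference of 0.25 did not pass the test (adjusted p = 0.159) although its arrays lay above the controls, and the 24 h rise was 4.36-fold. At 1 week it read -0.77, -1.21 and -0.65 in controls, -1.07, -1.20 and -1.06 at 6 h and -0.89, -0.73 and -0.67 at 24 h, with no call.

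Oasl2 shared with Ifit3 a fall at 1 week and 6 h. Its arrays gave 0.60, 0.13 and 0.13 in controls and -0.08, 0.02 and -0.14 at 6 h, a difference of -0.35 (SE 0.13, adjusted p = 0.0288; -0.20 and not called without control replicate 1), and 0.38, 0.68 and 0.64 at 24 h. At 8 weeks it gave 1.92, 1.93 and 2.18 in controls, 2.40, 2.42 and 2.57 at 6 h and 3.76, 3.98 and 4.18 at 24 h, rising 3.91-fold by 24 h. The 3 groups of 8-week arrays did not overlap.

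Oas3 is the family member called higher at both ages and both times, by little at 1 week. Its 1-week values were -0.33, -0.74 and -0.53 in controls, 0.04, -0.20 and -0.04 at 6 h and -0.36, -0.10 and -0.23 at 24 h. The 6 h arrays were clear of the controls (0.46, adjusted p = 0.00288), and the 24 h arrays overlapped them (0.30, adjusted p = 0.0494). That 24 h call was lost in 21 of 32 other settings. Among these were control replicate 2 left out, at 0.20, and other single arrays left out, some of them of other groups. At 8 weeks they were 0.05, 0.01 and 0.17 in controls, 0.74, 0.68 and 0.49 at 6 h and 1.24, 1.42 and 1.63 at 24 h, with no overlap. Oas2 rose by 0.63 at 6 h and 1.58 at 24 h at 8 weeks, and by 0.56 (adjusted p = 0.0105) at 24 h at 1 week, a call lost without control replicate 2, when it was 0.41.

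All 3 Parp genes, of a family that attaches ADP-ribose to proteins, rose at 8 weeks and 24 h. The 8-week values of Parp12 were -2.36, -2.41 and -2.34 in controls, -1.77, -1.78 and -2.004 at 6 h and -1.19, -0.99 and -0.996 at 24 h. The groups were clear of each other, with rises of 0.52 (SE 0.15) and 1.31 (SE 0.15) over controls. The 1-week values of -2.17, -2.88 and -2.72 in controls, -2.65, -2.84 and -2.73 at 6 h and -2.57, -2.53 and -2.82 at 24 h showed no such order, and neither difference was called. Parp9 rose by 0.57 and Parp14 by 0.60 at 8 weeks and 24 h, and neither was called at the other time or at 1 week.

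Isg15, a ubiquitin-like protein that is joined to other proteins, was not called after irradiation at either age. Its arrays read 3.74, 3.47 and 4.13 in 8-week controls, 3.85, 4.43 and 4.22 at 6 h and 3.94, 4.45 and 4.01 at 24 h, all overlapping. The 24 h difference was 0.35 (SE 0.28, adjusted p = 0.299), and its SE was the largest of the 34 genes. The 1-week arrays read 2.98, 3.06 and 2.90 in controls, 3.13, 2.38 and 1.93 at 6 h and 3.67, 2.53 and 3.002 at 24 h, with irradiated replicates spread over more than 1 log2 unit. Its promoter holds 3 overlapping matches to the response element, the most among the 27 genes with a promoter in the table.

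Usp18, which removes Isg15 and also damps receptor signalling, rose clearly at 8 weeks. Its values were 1.80, 1.89 and 2.03 in controls, 2.24, 2.63 and 2.52 at 6 h and 3.11, 3.25 and 3.39 at 24 h. No groups overlapped, and the rises were 0.56 (SE 0.12) and 1.34 (SE 0.12, adjusted p = 1.06e-07). At 1 week it gave 1.56, 1.20 and 1.54 in controls, 1.44, 1.14 and 1.32 at 6 h and 1.39, 1.47 and 1.21 at 24 h, which overlapped. Trim25, a ligase that joins Isg15 to targets, was the only gene of the 34 called lower at 1 week and 24 h: 3.98, 3.67 and 3.94 in controls, 4.04, 3.98 and 3.79 at 6 h and 3.63, 3.57 and 3.498 at 24 h. That fall was -0.30 (SE 0.09, adjusted p = 0.0158), and the call was lost without control replicate 1 or 3 or 24 h replicate 3, at -0.24 to -0.26. Its 8-week values of 4.25, 4.27 and 4.27 in controls, 4.14, 4.16 and 3.85 at 6 h and 4.12, 4.04 and 4.16 at 24 h gave no call, although every irradiated array lay below the controls.

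Among the antiviral effectors Rsad2 and Isg20 rose at both ages and both times. Rsad2, also called viperin, makes a nucleotide that stops viral RNA synthesis. It measured 5.99, 5.996 and 5.87 on 1-week control arrays, 6.70, 6.55 and 6.45 at 6 h and 6.85, 6.71 and 6.81 at 24 h. At 8 weeks it measured 5.80, 6.01 and 5.90 in controls, 6.41, 6.73 and 6.50 at 6 h and 6.43, 6.50 and 6.78 at 24 h. Every irradiated array exceeded every control of its age, by 0.62 and 0.84 at 1 week and by 0.65 and 0.67 at 8 weeks (SE 0.10 each).

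Isg20, an exonuclease that degrades RNA, likewise rose in all 4 comparisons. Its 1-week values were 5.55, 5.50 and 5.48 in controls, 6.20, 6.17 and 6.20 at 6 h and 6.08, 5.96 and 6.07 at 24 h. The 8-week values were 5.40, 5.57 and 5.41 in controls, 5.87, 6.04 and 5.88 at 6 h and 5.68, 5.83 and 5.87 at 24 h. The rises over controls were 0.68 and 0.53 at 1 week and 0.47 and 0.33 at 8 weeks (SE 0.06 each). The 6 h mean was above the 24 h mean at both ages, without passing the test (adjusted p = 0.0689 and 0.0804).

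Cmpk2 is a mitochondrial nucleotide kinase encoded next to Rsad2 on chromosome 12. It rose by 0.46 at 6 h and 1.24 (SE 0.09) at 24 h at 8 weeks, against 0.28 and 0.18 at 1 week. Of the 1-week values the first was called, and not without control replicate 2 or 6 h replicate 1, at 0.20 each. Bst2, also called tetherin, holds budding virus at the cell surface. It read 1.89, 1.56 and 1.55 in 1-week controls, 1.86, 1.67 and 1.97 at 6 h and 1.97, 1.30 and 1.54 at 24 h, which overlapped. The 8-week arrays read 3.11, 2.96 and 3.30 in controls, 3.39, 3.29 and 3.01 at 6 h and 3.51, 3.82 and 3.60 at 24 h, and only the 24 h group passed the test (0.52, SE 0.15). Ifitm3, which blocks virus entry, rose by 0.47 (SE 0.15, adjusted p = 0.013) at 8 weeks and 24 h, and was at 0.33 and not called without 8-week control replicate 3.

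The 4 other induced genes all rose at 8 weeks and 24 h. Rtp4, a Golgi chaperone for membrane receptors, stood at 3.17, 2.13 and 2.82 in 1-week controls, 2.04, 1.83 and 1.92 at 6 h and 2.75, 2.83 and 2.74 at 24 h. All 3 arrays at 6 h were below the controls (-0.78, SE 0.18, adjusted p = 0.00189), and those at 24 h lay among them. At 8 weeks it stood at 3.34, 3.72 and 3.82 in controls, 4.34, 4.44 and 4.28 at 6 h and 5.58, 5.76 and 5.90 at 24 h. These groups did not overlap, and the rises were 0.73 and 2.12 (SE 0.18).

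Ifi44, a cytoplasmic protein of the interferon response, varied widely in 8-week controls. Those read -2.41, -1.58 and -1.30, against -1.09, -0.80 and -1.22 at 6 h and -0.05, 0.26 and 0.03 at 24 h. All irradiated arrays were above all controls, by 0.73 (SE 0.21, adjusted p = 0.00967) and 1.84 (SE 0.21). The 6 h call was lost without 8-week control replicate 1, at 0.40, or 6 h replicate 2, at 0.61. At 1 week it read -2.04, -2.48 and -2.09 in controls, -2.24, -2.37 and -2.41 at 6 h and -2.36, -2.14 and -2.17 at 24 h, with no call. Xaf1, a proapoptotic partner of the inhibitor Xiap, rose by 0.46 and 1.54 (SE 0.12) at 8 weeks, and Epsti1 by 0.44 at 24 h. Neither was called at 1 week.

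**Figure D3:**
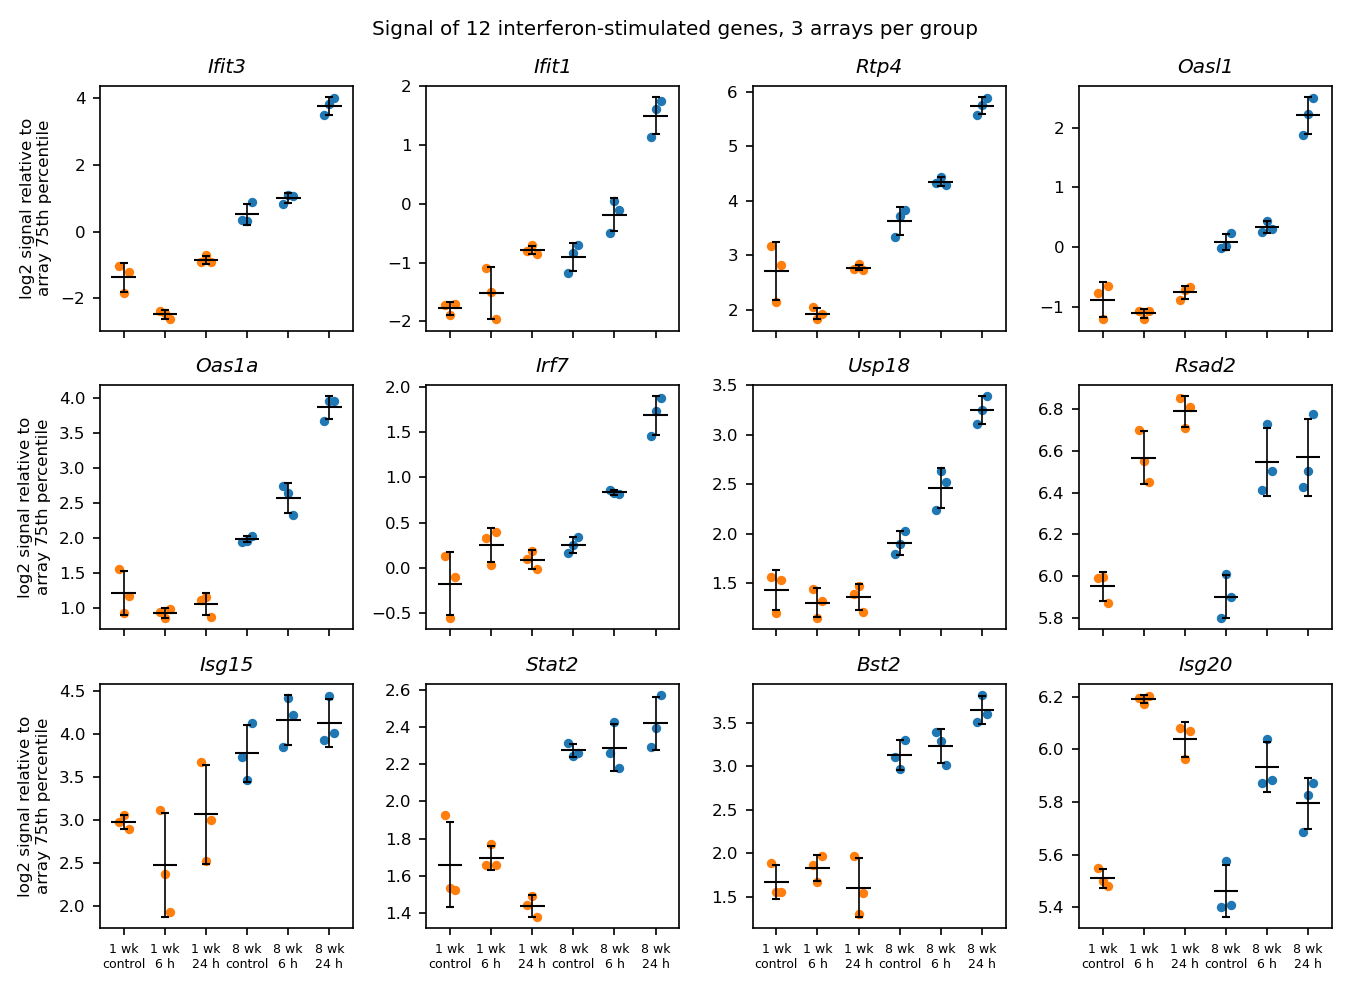
Signal of 12 genes on each array, on a log2 scale relative to the array's 75th percentile, with 1-week arrays in orange and 8-week arrays in blue, and lines for the mean and SD of 3 arrays. Ifit3 reaches 3.49, 3.83 and 4.0 on the 8-week arrays at 24 h, whereas Rsad2 and Isg20 are raised at both ages and Isg15 and Stat2 overlap their controls at 8 weeks. Each panel has its own vertical axis, which does not start at 0.

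Among controls, 8-week marrow had higher levels than 1-week marrow for 25 of the 34 genes and a lower level for none, where 27.4% of all tested genes were higher and 37.5% lower. The median difference was 0.61, against -0.09 over all genes, and 7 genes differed by at least a factor of 2, against 5.02% of all genes. The 3 largest were Ifit3 at 1.89 (SE 0.19), Oasl2 at 1.72 (SE 0.13, adjusted p = 8.76e-09) and Bst2 at 1.46 (SE 0.15). Every 8-week control array exceeded every 1-week control array for these 3 genes. The other 4 past that factor were Zbp1 at 1.33, Trim30a at 1.20, Epsti1 at 1.14 and Oas2 at 1.13. All 5 Oas genes were higher, and so was each of Isg15, Usp18 and Trim25. The call of Isg15 (0.80) was lost without 8-week control replicate 3, at 0.62, or 1-week control replicate 3, at 0.76.

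The 9 genes without a call between control groups included several that rose after irradiation at 8 weeks. They were Ifit2 at 0.12, Rsad2 at -0.05, Ifih1 at 0.06, Ifi44 at 0.44, Ifi35 at 0.07, Parp9 at 0.16, Parp12 at 0.22, Cmpk2 at 0.05 and Isg20 at -0.05. No overlap between the 2 control groups was seen for 25 genes, all with the higher values at 8 weeks, against 29.5% of all genes. Without control replicate 2 at 1 week 24 genes were called, and Irf7 lost its call at 0.24 (adjusted p = 0.0945).

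The response itself differed between the ages. At 24 h the difference of responses, 8-week minus 1-week, was called above 0 for 29 of 34 genes and below 0 for none, where 28.5% of all genes were above and 13.5% below. Other settings did call genes below 0, 2 with the mean of all probes or the second-brightest probe and 1 with quantile scaling or the percentile of probes above background. With the normexp correction 14 of the 34 were called. Its median was 0.98, against 0.11 over all genes, and it was at least 1 for 17 of the 34 genes, against 6.4% of all genes. The 6 largest were Ifit3 at 2.73 (SE 0.26), Rtp4 at 2.06 (SE 0.26), Oas1a at 2.05 (SE 0.19), Oasl1 at 2.01 (SE 0.20), Zbp1 at 1.93 (SE 0.36) and Ifi44 at 1.87 (SE 0.30). Their limma adjusted p-values lay between 1.71e-06 and 0.000608.

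The 5 genes without a called difference at 24 h were Isg15 at 0.27, Rsad2 at -0.17, Isg20 at -0.20, Trim25 at 0.14 and Sp100 at -0.22. Rsad2, Isg20 and Sp100 were the genes called higher in all 4 comparisons with controls along with Oas3, whose difference of responses was called. For Rsad2 the SE of the difference was 0.14, and a missed threshold does not show that the ages responded alike. Dimmer probes of Rsad2 and Sp100 rose less at 8 weeks than at 1 week at 24 h. Those of Rsad2 gave 0.19 and 0.25 at 8 weeks and 0.84 and 0.92 at 1 week. That of Sp100 gave 0.26 at 8 weeks and 0.91 at 1 week.

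At 6 h the difference of responses was called above 0 for 8 of 34 genes, where 10.5% of all genes were above 0, and below 0 for none, where 8.09% were. None was called with the normexp correction, and 5 with the slide as a block. Ifit3 at 1.60 (SE 0.26, adjusted p = 0.000848) and Rtp4 at 1.51 (SE 0.26, adjusted p = 0.00112) differed most, and both fell at 1 week and rose at 8 weeks. Oasl2 at 0.81, which also had opposite calls at the 2 ages, was one of the others. The remaining 5 were Oas1a at 0.88, Usp18 at 0.69, Parp12 at 0.67, Xaf1 at 0.66 and Ifi35 at 0.48, none of which was called at 1 week. The call of Parp12 was lost on leaving out any of several single arrays, the lowest value being 0.46.

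**Figure D4:**
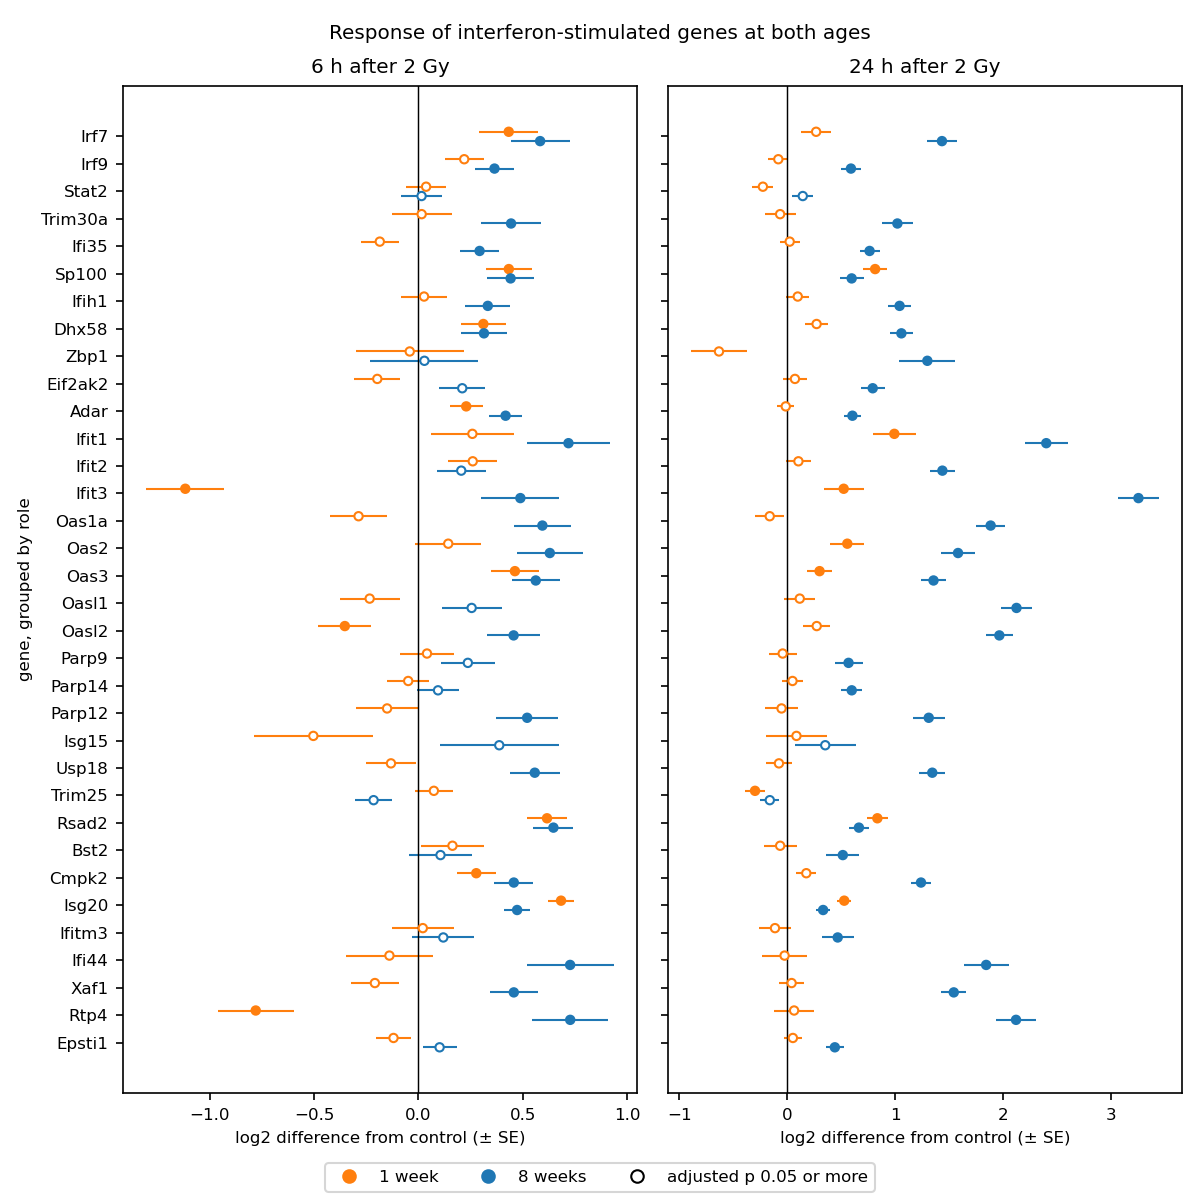
Log2 difference from the control group of the same age with its SE for 34 genes, at 6 h (left) and 24 h (right) after 2 Gy, 1 week in orange and 8 weeks in blue, with open circles for adjusted p of 0.05 or more. At 24 h the blue points run up to 3.25 while the orange points lie between -0.63 and 0.99, and at 6 h the 2 lowest orange points are Ifit3 and Rtp4.

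From 6 h to 24 h at 8 weeks 25 of 34 genes rose further and none fell, against 33% of all genes higher and 16.5% lower, and 10 rose by at least a further factor of 2, against 2.7% of all genes. Ifit3 gained 2.77 (SE 0.19), Oasl1 1.87 (SE 0.14) and Ifit1 1.68 (SE 0.20). Rsad2 at 0.02 and Isg20 at -0.14 gained nothing that passed the test, and 15 genes were called with the normexp correction. At 1 week 6 genes were higher at 24 h than at 6 h and 4 were lower, against 18.6% and 17.6% of all genes. The rises were Ifit3 at 1.64, Rtp4 at 0.84, Ifit1 at 0.74, Oasl2 at 0.63, Oas2 at 0.42 and Sp100 at 0.38, and the falls were Trim25, Irf9, Stat2 and Adar. With each array set to its median instead, 13 were higher and none lower, and without replicate 2 or replicate 3 of the 6 h arrays 6 were called in all.

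The highest of the 6 group means was at 8 weeks and 24 h for 30 of the 34 genes. The 4 others were Isg15, Rsad2, Isg20 and Trim25, whose highest means were in 4 different groups. Arrays of the 8-week controls and of the 24 h group did not overlap for 31 genes in the upward direction, against 45% of all genes, and for 22 genes at 6 h, against 28.6%. Replicates within the 24 h group also differed: replicate 1 was the lowest of its group for 30 genes and replicate 3 the highest for 28. Their median differences from the 8-week control mean were 0.88 and 1.19, with 1.11 for replicate 2, so all 3 stood above the 6 h arrays, whose medians ran from 0.33 to 0.54. The median SD among these replicates was 0.15 for the 34 genes and 0.08 for all tested genes.

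Other genes of the pathway were followed in a wider set of 57 interferon pathway genes, of which 43 were tested. Not all lie upstream of the list, since brakes and further interferon-induced genes are among them. Those further induced genes, described below, were all higher at 8 weeks and 24 h and are part of these counts. In 8-week marrow 25 of the 43 were higher and 5 lower at 24 h, against 38.3% and 19.5% of all genes, and 23 were higher and 4 lower at 6 h, against 23.9% and 22.1%. In 1-week marrow 18 were higher and 5 lower at 6 h, against 25.5% and 26.3%. At 24 h 10 were higher and 4 lower, which is near the 18.4% of all genes higher, with 17.6% lower. In controls 32 were higher and 5 lower at 8 weeks than at 1 week, against 27.4% and 37.5%.

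Interferon transcripts were mostly below what the arrays could measure. Ifnb1, Ifna4, Ifnk and Ifne were well above background on 0 of 18 arrays, Ifna2 on 4 and Ifnl3 on 1, so no level can be given for them. Ifng, the type II interferon, was above background on all 18 and is named here after its values were seen. It rose at 8 weeks from -2.46 ± 0.11 in controls to -1.59 ± 0.53 at 6 h and -1.22 ± 0.13 at 24 h (SD, n = 3), by 0.87 and 1.24 (SE 0.21). At 1 week its differences of -0.35 and 0.06 were not called.

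Neither Ifnar chain had a called rise at 8 weeks and 24 h. Ifnar1 rose by 0.36 at 1 week and 6 h and fell by 0.32 (SE 0.08) at 8 weeks and 24 h, where the interferon-stimulated genes were highest. Ifnar2 rose by 0.60 and 0.56 at 1 week and by 0.29 at 6 h at 8 weeks. At 8 weeks and 24 h it differed by 0.16 (adjusted p = 0.0975). Ifnlr1, a chain of the type III interferon receptor, rose by 0.72 and 0.68 at 1 week and by 0.48 and 0.27 at 8 weeks, and was 1.70 higher in 8-week than in 1-week controls. Mavs, the adaptor of the RNA sensors, rose by 0.72 at 1 week and 6 h. For both Ifnar chains the difference of responses at 24 h was below 0, -0.41 and -0.40.

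Of the 6 interferon regulatory factors outside the list none was called higher after irradiation at either age. Irf1, an activator, was at 0.26 (adjusted p = 0.0515) at 8 weeks and 24 h. Irf8, needed for monocyte and dendritic cell development, was 1.31 (SE 0.08) higher in 8-week than in 1-week controls and fell by 0.20 at 24 h. Irf4, a factor of B and plasma cells, fell at both ages and times, by 2.02 at 8 weeks and 24 h.

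Of 9 further interferon-induced genes outside the list all were higher at 8 weeks and 24 h, 7 at 8 weeks and 6 h, 3 at 1 week and 6 h with 3 lower, and 1 at 1 week and 24 h. Over all genes 38.3% were higher at 8 weeks and 24 h and 23.9% at 6 h, and the 1-week counts are near the shares of all genes, 25.5% higher and 26.3% lower at 6 h and 18.4% higher at 24 h. Gbp2, an interferon-induced GTPase, rose by 1.63 and Lgals3bp, a secreted glycoprotein, by 1.52 at 8 weeks and 24 h. Tor3a, an interferon-induced ATPase, rose by 1.35. At 1 week and 6 h Gbp2 and Tor3a fell, by 0.52 and 0.22. Among the brakes, Socs3 rose by 1.27 (SE 0.09) at 8 weeks and 24 h and was not called at 1 week, while Socs1 fell in the other 3 comparisons with controls and was at 0.03 at that time.

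Markers of several marrow cell types moved in the same samples. Of all genes 38.3% were higher and 19.5% lower at 8 weeks and 24 h, and 27.4% and 37.5% between controls. The shares higher and lower were 23.9% and 22.1% at 8 weeks and 6 h. At 1 week they were 25.5% and 26.3% at 6 h, and 18.4% and 17.6% at 24 h. These shares apply to the marker counts of every cell type below. All 9 tested markers of resident macrophages, which engulf dead cells and old red cells, rose at 8 weeks and 24 h (median difference 1.47), and 8 rose at 6 h. At 1 week 7 of the 9 fell and 1 rose at 6 h, and 8 rose at 24 h. Their summed signal, with each array's 75th percentile set to 1, ran from 48.9 to 58.9 in 8-week controls, 102 to 105 at 6 h and 166 to 182 at 24 h. At 1 week it ran from 31.2 to 34.6, then 21.1 to 25.4, then 63.8 to 66.2. Hmox1, which breaks down heme, rose by 2.16 and Spic, a factor for red pulp and marrow macrophages, by 1.91 at 8 weeks and 24 h. Hmox1 made up most of the step in the summed signal at 8 weeks and 6 h, and the largest single part at 24 h. Most of the 1-week step from controls to 24 h was Hmox1 as well. Its 8-week log2 signal was 4.14, 4.19 and 3.81 in controls, 5.58, 5.58 and 5.44 at 6 h and 6.08, 6.21 and 6.32 at 24 h. C1qa, a complement component made by these cells, fell by 1.64 at 1 week and 6 h and rose by 1.47 at 8 weeks and 24 h. Each of the 9 was above background on some arrays, and the part of these cells in the interferon-stimulated signal was not tested.

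Plasmacytoid dendritic cells are the main makers of type I interferon. Of their 10 markers 8 were higher and 1 lower in 8-week than in 1-week controls, and 4 were lower and none higher at 8 weeks and 24 h. Their summed signal ran from 47.1 to 48.4 in 8-week controls and from 26.6 to 28.4 at 24 h. Spib, a factor also of B cells, made up most of that step, and the sum without it ran from 25.8 to 26.7 and from 21.3 to 22.7. At 1 week the sum of all 10 ran from 21.2 to 35.9 in controls, or from 21.2 to 22.5 without replicate 2, and from 14.0 to 15.5 at 24 h. Of 9 monocyte markers 8 were higher in 8-week controls, while 2 were higher and 5 lower at 8 weeks and 24 h. Their summed signal went the other way, from 272 to 288 in 8-week controls and from 350 to 389 at 24 h. Ly6c2 made up most of it, at a log2 signal of 7.45, 7.47 and 7.54 and then 8.06, 8.07 and 8.22. All 8 natural killer cell markers were higher in 8-week than in 1-week controls, 6 rose at 8 weeks and 6 h and 2 at 24 h, and their summed signal ran from 16.7 to 17.9 in 8-week controls, 20.6 to 23.6 at 6 h and 23.8 to 27.7 at 24 h. At 1 week it ran from 6.01 to 6.76 in controls and from 4.50 to 4.61 at 24 h. Nkg7 made up most of each of these sums. Its log2 signal was 3.76, 3.59 and 3.73 in 8-week controls and 4.28, 4.53 and 4.32 at 24 h. Late neutrophil markers rose at both ages, 9 of 9 at 24 h each time, with sums of 1150 to 1330 in controls and 1779 to 1938 at 24 h at 1 week, and 1841 to 2004 and 2524 to 2691 at 8 weeks. B-cell precursor markers fell in all 4 comparisons, 8 of 8 tested each time, with Rag2 above background on no array. The parts of these cells in the results were not tested either.

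**Figure D5:**
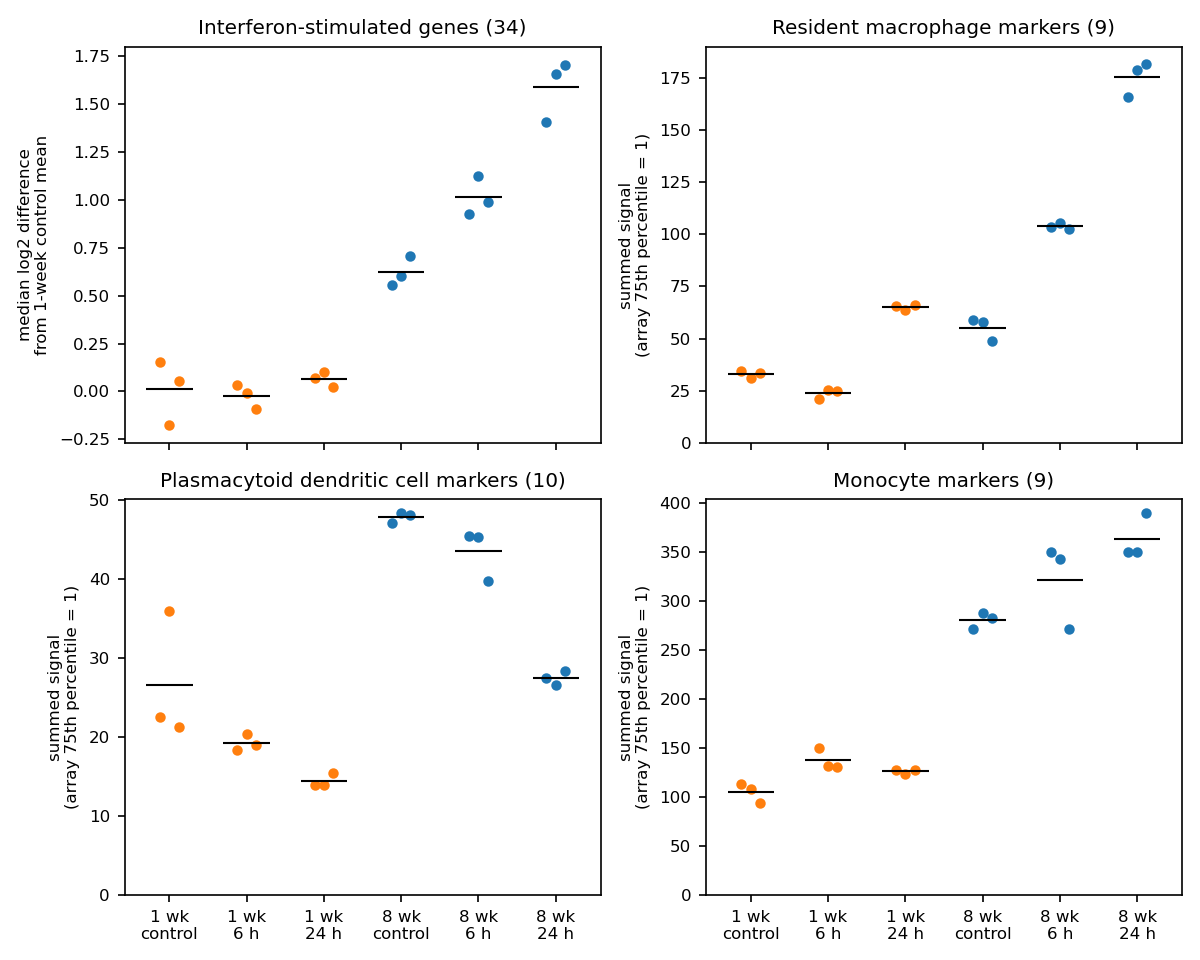
Each point is 1 array, 1 week in orange and 8 weeks in blue, with a line at the mean of 3. The first panel gives the median log2 difference of the 34 interferon-stimulated genes from the mean of 1-week controls, and the others give summed signals of cell markers on a linear scale, the array's 75th percentile being 1. Resident macrophage markers reach 166 to 182 on the 8-week arrays at 24 h, where the plasmacytoid markers are at 26.6 to 28.4.

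Among the 27 genes with a promoter in the table the calls can be set beside the response element. At 8 weeks and 24 h 7 of the 9 genes with a match were called, with a median difference of 1.02, and 17 of the 18 without a match, with a median of 0.92. Of all tested genes 38.3% were called higher and 19.5% lower in that comparison. The genes with a match ran from 0.15 for Stat2 to 3.25 for Ifit3. Those without ran from -0.16 for Trim25 to 2.13 for Oasl1. In controls the medians were 0.80 with a match and 0.42 without.

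Further probes were present for 14 of the genes, 16 in all, and at 8 weeks and 24 h 15 of the 16 had the sign of the probe used. The 2 dimmer probes of Rsad2 gave 0.19 and 0.25 at 8 weeks and 24 h, against 0.67 for the probe used, and 0.84 and 0.92 at 1 week and 24 h, against 0.84. A dimmer Parp14 probe gave 0.14 at 8 weeks and 24 h, and the dimmer Trim25 probe gave 0.28 where the probe used gave -0.16. The second Oas2 probe was above background on 0 of 18 arrays. Of the 31 calls at 8 weeks and 24 h, 21 held under every alternative tried, among them all 3 Ifit genes, all 5 Oas genes, Irf7 and Usp18.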

How the data were processed

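Expression in bone marrow was measured on 18 one-colour Agilent arrays, 3 in each of 6 groups of age and time after irradiation. The authors deposited 1 scanner file per array with spot intensity, already corrected for background and spatial trend by Feature Extraction 9.5.1.1 per the file headers, while the submitters' processing notes name 11.5.1. The deposited series table holds log2 values from the authors, which followed the array files closely and served as an alternative. The log2 of the processed signal minus each array's 75th percentile was used, control spots and outlier flags were left out, and the brightest probe stood for a gene. Of 41174 probes 24844 were traced to a symbol through RefSeq accessions. A gene was tested if it was well above background (at least 0.5 of spots) on all arrays of 1 group or more. All 6 groups entered 1 limma fit (limma 3.58.1 in R 4.3.3) with an intensity trend, 12 residual degrees of freedom and Benjamini-Hochberg adjustment over 11884 genes, two-sided. The number of arrays limits the precision. On simulated data for 8-week marrow at 24 h, the fit recovered 70% of 100 genes changed by 0.5 on the log2 scale. It recovered 87% of 100 genes changed by 1 and called 6 of 11684 unchanged genes, over 11884 genes. The simulated noise was independent between arrays, and the changed genes were all raised and in that group only. In the real comparison 6870 of 11884 genes were called, so these rates do not carry over to it.

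The gene list and the marker and pathway lists were chosen with earlier results of these data known. Values on every array are given for the 3 largest called changes in each direction after irradiation and the 3 largest between controls, for the 6 largest differences of response, and for Irf7, Isg15, Ifit1, Stat2 and Usp18. Of the pathway, Irf1, Irf8, the receptor chains and Ifnb1 are always named (1 further gene of that rule is not reported here), with up to 4 further called genes of smallest adjusted p per comparison, and of each cell list up to 3. Alternatives covered background, scaling, filter, probe choice, slide, replicate number, model and each array left out. The alternative with the file's own gene names was not run, since the column is not in the array files used, and the median raw signal took the place of the mean in the normexp correction.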

Additional observations from a re-analysis of the deposited data

Results flagged for a closer look

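The responses of 8-week and 1-week marrow to 2 Gy differed by a limma test of the difference itself for the genes given here, each with its log2 difference of responses, 8-week minus 1-week. At 24 h the Ifit genes differed by 1.41 for Ifit1, 1.33 for Ifit2 and 2.73 for Ifit3. The Oas family differed by 2.05 for Oas1a, 1.03 for Oas2, 1.06 for Oas3, 2.01 for Oasl1 and 1.69 for Oasl2. Signalling factors differed by 1.17 for Irf7, 0.67 for Irf9, 0.37 for Stat2, 1.09 for Trim30a and 0.74 for Ifi35. Sensors differed by 0.94 for Ifih1, 0.79 for Dhx58, 1.93 for Zbp1, 0.72 for Eif2ak2 and 0.62 for Adar. The Parp genes differed by 0.61 for Parp9, 0.55 for Parp14 and 1.36 for Parp12.

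Among effectors and other induced genes the 24 h difference was 1.42 for Usp18, 0.58 for Bst2, 1.06 for Cmpk2, 0.58 for Ifitm3, 1.87 for Ifi44, 1.502 for Xaf1, 2.06 for Rtp4 and 0.39 for Epsti1. The calls of Ifitm3, Bst2 and Stat2 were each lost on leaving out any of several single arrays, the lowest values being 0.44, 0.43 and 0.24. Of the upstream genes Irf1 differed by 0.46, while Ifnar1 at -0.41 and Ifnar2 at -0.40 differed in the other direction. At 6 h the difference was 1.60 for Ifit3, 1.51 for Rtp4, 0.88 for Oas1a and 0.81 for Oasl2. It was 0.69 for Usp18, 0.67 for Parp12, 0.665 for Xaf1 and 0.48 for Ifi35. The 6 h call of Parp12 was lost on leaving out any of several single arrays, the lowest value being 0.46.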

How the results depend on the processing

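Of the calls among the 34 interferon-stimulated genes, those of 8-week marrow at 24 h held best: 21 of 31 held under every alternative, as did 16 of 25 between controls, 13 of 29 for the difference of responses at 24 h and 14 of 25 from 6 h to 24 h at 8 weeks. At 8 weeks and 6 h 1 of 22 did, at 1 week 1 of 11 at 6 h and 2 of 8 at 24 h, from 6 h to 24 h at 1 week 1 of 10, and for the difference of responses at 6 h 0 of 8. A normexp background correction cut the calls most. With it 1 gene was called at 1 week and 6 h, 2 at 1 week and 24 h, 3 at 8 weeks and 6 h, 0 and 14 for the difference of responses at 6 h and 24 h, and 1 and 15 from 6 h to 24 h at 1 and 8 weeks. Calls over all genes fell too, from 6870 to 3514 at 8 weeks and 24 h and from 5469 to 759 at 8 weeks and 6 h. The cause was not tested. The sign turned under normexp for Isg20 (-0.18), Ifitm3 (-0.0215) and Epsti1 (-0.0111) at 8 weeks and 24 h, for Stat2 (-0.0025) and Epsti1 (-0.039) in the difference of responses at 24 h, and for Bst2 (-0.0427) and Epsti1 (-0.0015) from 6 h to 24 h at 8 weeks. From 6 h to 24 h at 1 week Oas2 was at -0.0522 with the mean of all probes and -0.52 with the second-brightest probe, which is below background on all arrays. Parp14 was at -0.0123 with the second-brightest probe from 6 h to 24 h at 8 weeks.

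With the slide as a block 7 genes were called at 1 week and 6 h and 5 for the difference of responses at 6 h. With only the groups of the comparison in the fit 6 were called at 1 week and 6 h. Scaling to the median left 5 at 1 week and 24 h and 14 at 8 weeks and 6 h, and the second-brightest probe left 6 from 6 h to 24 h at 1 week. Leaving out 1 array gave 7 to 12 at 1 week and 6 h, 5 to 10 at 1 week and 24 h, and 6 to 12 from 6 h to 24 h at 1 week, the lowest without 1-week replicate 1 at 6 h, replicate 2 or 3 at 24 h, and replicate 2 or 3 at 6 h. Scaling to the median also moved the share of higher calls over all genes, from 49.2% to 22.8% at 1 week and 6 h, 52% to 41.2% at 8 weeks and 6 h, 42.3% to 52.7% between controls, 56.5% to 89.8% for the difference of responses at 6 h, and 51.3% to 87% and 66.7% to 82.5% from 6 h to 24 h at 1 and 8 weeks. Replicate numbers did not pair the arrays: of 45 pairs 9 correlated above 0.1, and 9 of 18 arrays correlated best with their own number. A fit with the replicate number as a block called 12 and 7 genes at 1 week, 22 and 31 at 8 weeks, 25 between controls and 8 and 28 for the differences of responses. The 2 alternatives on probes, unmapped probes and the second-brightest probe, were chosen after seeing the data. Dim signal limits the interferon genes themselves, which were mostly below background.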
